A study of Mus musculus with 23 samples.

Results

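The genes described here are 10 feedback genes of the RAS-ERK pathway: the Sprouty genes Spry1, Spry2 and Spry4, the Spred genes Spred1 and Spred2, the phosphatase genes Dusp4, Dusp5 and Dusp6, and the ETS transcription factor genes Etv4 and Etv5. They were chosen by name, with earlier results of these data known, and all 10 were among the 19938 genes measured. The samples are cells sorted from tumours that the Py2T line had formed in the mammary fat pad of female FVB/N mice. Py2T cells were established from a mammary tumour of the MMTV-PyMT mouse, a breast cancer model, so every tumour came from 1 line. Treated mice received nintedanib, an inhibitor of the VEGF, FGF and PDGF receptor tyrosine kinases, at 50 mg per kg body weight for 7 days (short-term) or 21 days (long-term). The untreated controls had the size of the long-term tumours, and no control of the size of the short-term tumours was compared. Tumour cells were measured on 3 untreated, 4 short-term and 5 long-term arrays, and blood vessel endothelial cells on 3, 3 and 5. The labels state neither the age of the mice, nor the sorting markers, nor whether animals were pooled.

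Growth factor receptors activate RAS, RAF, MEK and ERK in turn, and active ERK drives transcription of its own restraints. Sprouty and Spred proteins act upstream, between the receptor and RAF. DUSP6 removes phosphate from ERK in the cytoplasm, and DUSP4 and DUSP5 do so in the nucleus. ETV4 and ETV5 belong to the PEA3 group of ETS factors, are induced by FGF signalling and act with the other members as widely used readouts of ERK output. In endothelial cells VEGF and FGF receptors feed the pathway, and SPRY4 and SPRED1 are known restraints of vessel growth.

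ETS factors, among them ETV4 and ETV5 and the ETS partners of the serum response factor, bind sites with the core GGAA. The stretch upstream of the start site is shown for 3 members, Spry1 and Spred1 because they differed between the cell types and Dusp6 as the gene of an ERK-specific phosphatase. The sequences are from RefSeq on GRCm38.p6, 250 bases upstream of the start, 5′ to 3′ on the plus strand, on which all 3 genes lie. They are in lower case with GGAA, or its complement TTCC, in capitals.
Spry1, chr3:37639697-37639946: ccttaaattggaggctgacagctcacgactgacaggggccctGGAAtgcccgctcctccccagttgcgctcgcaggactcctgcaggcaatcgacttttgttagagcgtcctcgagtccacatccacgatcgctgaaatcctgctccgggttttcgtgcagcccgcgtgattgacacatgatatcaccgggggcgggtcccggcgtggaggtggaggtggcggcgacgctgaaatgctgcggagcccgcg
Spred1, chr2:117120821-117121070: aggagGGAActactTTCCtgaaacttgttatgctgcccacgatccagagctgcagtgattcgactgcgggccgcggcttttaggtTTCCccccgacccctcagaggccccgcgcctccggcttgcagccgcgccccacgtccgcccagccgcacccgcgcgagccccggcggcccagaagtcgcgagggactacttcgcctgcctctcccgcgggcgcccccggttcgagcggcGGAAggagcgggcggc
Dusp6, chr10:99262981-99263230: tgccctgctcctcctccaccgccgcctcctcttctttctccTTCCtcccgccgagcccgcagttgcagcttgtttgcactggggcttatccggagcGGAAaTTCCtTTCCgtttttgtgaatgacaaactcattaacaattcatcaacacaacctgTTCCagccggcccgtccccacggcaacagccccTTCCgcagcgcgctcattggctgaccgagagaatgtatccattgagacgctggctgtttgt
Spry1 held 1 GGAA on either strand, Spred1 held 4 and Dusp6 held 6. The longer form CGGAAG, which contains GGAA, occurred once in Spred1 and once in Dusp6. For 7 of the 10 members a promoter was used, and all 7 genes held GGAA in at least 1 window, as did 93.4% of the 32851 windows of the same length. CGGAAG occurred in 3 of the 7 (Spred1, Spred2 and Dusp6), and in 13.6% of all windows. A match describes letters only.

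The deposited values are log2 signals, so a difference of 1 is a doubling, and a level can be compared between groups for 1 gene but not between genes. Fits used limma, and a gene was called where its p, adjusted by the Benjamini-Hochberg method over all 19938 genes, was under 0.05. Errors written after ± are standard errors (SE) of the fit unless marked SD. Arrays of 1 group correlated across genes at 0.983 or more in tumour cells and 0.935 or more in endothelial cells. All 15 endothelial markers were higher in endothelial than in tumour cells, with list means of 9.59 to 10.23 against 3.86 to 4.22. Among 12 epithelial markers the keratins Krt8, Krt14 and Krt18 were called lower in untreated endothelial cells. The other 9, Epcam among them (0.42 ± 0.34, adjusted p = 0.446 in limma), were not called, and 6 of the 12 were higher and 6 lower in direction. The epithelial list averaged 6.93 on long-term endothelial replicate 4, above every tumour cell array (5.97 to 6.44), and 5.19 to 6.01 on the other endothelial arrays. The macrophage markers averaged 4.20 to 5.16 on tumour cell arrays. On endothelial arrays they ranged from 4.57 to 5.05 in the short-term group, from 5.56 to 7.83 in the untreated and from 4.92 to 7.73 in the long-term group. Dissociation and immediate early genes, which cell isolation can induce, averaged 8.26 to 8.68 on untreated, 9.02 to 9.42 on short-term and 8.43 to 9.11 on long-term tumour cell arrays. All 18 of them were higher in short-term than in untreated tumour cells in direction, and 3 were called.

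**Figure D1:**
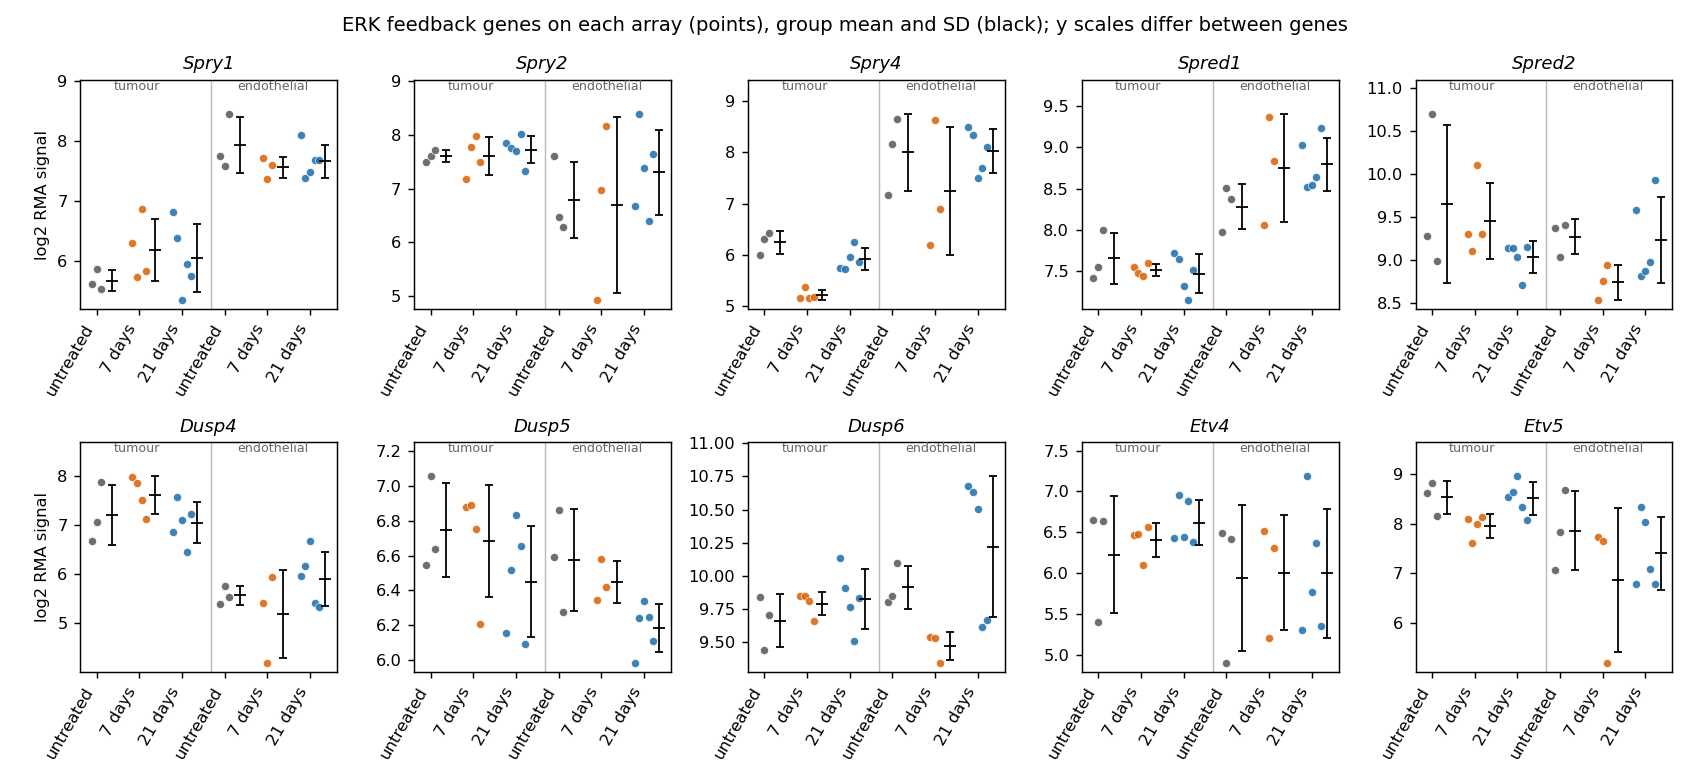
Log2 signal of the 10 ERK feedback genes on each of the 23 arrays; points are arrays, black bars the group mean and SD, and the vertical line parts tumour cells (left) from endothelial cells (right). Spry4 on the 4 short-term tumour cell arrays lies between 5.15 and 5.36, below the other 8 tumour cell arrays, whose lowest is 5.73.

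After 7 days of nintedanib Spry4 was lower in tumour cells than in untreated tumours, and none of the other 9 feedback genes was called. Spry4 encodes a Sprouty protein that restrains RAS activation. Its signal was 5.99, 6.31 and 6.42 on the untreated tumour cell arrays and 5.16, 5.36, 5.15 and 5.18 on the short-term ones. The groups did not overlap, and the short-term arrays lay within 0.21 log2 units of each other. Spry4 fell by 1.03 ± 0.13 on the log2 scale (95% interval -1.32 to -0.73), a 2.03-fold decrease with an adjusted p of 0.0099 in limma. Over 21 alternatives to the fit the adjusted p ran from 0.00333 to 0.797, and the call was lost in 2. By p Spry4 ranked 12 among the 19938 genes of this comparison. Calls were made for 101 genes, 0.507% of those tested, of which 79 were higher (0.396%) and 22 lower (0.11%). Over the 10 members the median difference was -0.03, and over all genes it was -0.01. In bulk samples such as these, a change in the share of cells and a change in RNA per cell cannot be told apart. The dissociation and immediate early genes moved with this comparison. So did the epithelial list, whose mean was 5.97 to 6.20 on untreated and 6.22 to 6.44 on short-term arrays, with 11 of 12 genes higher in direction and 0 called. Of the macrophage markers 13 of 16 were lower in direction (median -0.30), and of the endothelial ones 12 of 15 (median -0.13), also with 0 called. An alternative with the mean of the dissociation and immediate early genes as a covariate was chosen after seeing the data. In it the Spry4 difference was -0.71 ± 0.21 with an adjusted p of 0.692 in limma, and 1 gene was called in all. That mean did not overlap between untreated and short-term arrays, so the fit could not fully part it from treatment. The part of the other lists in the result was not tested.

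The other Sprouty genes did not follow Spry4 past the threshold. Spry1, which restrains receptor signalling in many tissues, read 5.61, 5.87 and 5.52 in untreated tumour cells and 6.30, 5.74, 6.86 and 5.82 in short-term ones. These ranges overlapped, and the difference was 0.51 ± 0.33 (adjusted p = 0.638, limma). Spry2, a close relative of Spry1, read 7.50, 7.61 and 7.73 against 7.17, 7.78, 7.98 and 7.49, and its difference was 0.00 ± 0.19, with a 95% interval of -0.41 to 0.40. The short-term Spry2 arrays extended beyond the untreated ones on both sides.

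Spred1 and Spred2 bind RAS regulators at the membrane and block RAF activation. Spred1 read 7.42, 7.55 and 8.00 in untreated and 7.55, 7.49, 7.44 and 7.60 in short-term tumour cells, a difference of -0.14 ± 0.15 (95% interval -0.47 to 0.19). For Spred2 the untreated arrays were 9.27, 10.70 and 8.98 and the short-term ones 9.30, 9.10, 10.10 and 9.30. A single untreated array (10.70) and a single short-term array (10.10) stood above the rest for Spred2. Its difference, -0.20 ± 0.35, did not pass. A second, dimmer transcript cluster of Spred2 gave 0.20 ± 0.19, which did not pass either and has the opposite sign.

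The 3 ERK phosphatases did not pass the test after 7 days. Dusp6 read 9.84, 9.44 and 9.70 in untreated and 9.84, 9.84, 9.81 and 9.66 in short-term tumour cells. Its difference was 0.13 ± 0.13, and the interval from -0.17 to 0.42 leaves out a decrease as large as that of Spry4. Dusp4, the nuclear phosphatase, read 6.66, 7.06 and 7.87 against 7.96, 7.84, 7.50 and 7.12, a difference of 0.41 ± 0.31 with overlapping groups. Dusp5, the other nuclear one, read 6.54, 7.05 and 6.64 against 6.88, 6.89, 6.75 and 6.21 (-0.06 ± 0.21).

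Of the 2 PEA3 factors, Etv5 was lower on all short-term arrays and Etv4 was not. Etv5 read 8.63, 8.81 and 8.16 in untreated and 8.09, 7.60, 8.00 and 8.14 in short-term tumour cells. The groups did not overlap, but by only 0.02 log2 units, and the difference of -0.58 ± 0.21 did not pass (adjusted p = 0.301, limma). Spry4 and Etv5 were the members without overlap in this comparison, 2 of 10, both lower. Over all genes 10.2% did not overlap, 5.32% higher and 4.90% lower. The dimmer second cluster of Etv5 gave -0.18 ± 0.15. Etv4 read 6.65, 5.41 and 6.63 against 6.47, 6.47, 6.10 and 6.57, and 1 untreated array was far below the other two; its difference was 0.18 ± 0.27.

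After 21 days no member was called in tumour cells against the size-matched untreated tumours. At an unadjusted p under 0.05 there was 1 of the 10, Spry4, beside 2020 of the 19938 genes, about the same share. Its long-term arrays read 5.75, 5.73, 5.95, 6.26 and 5.85, overlapping the untreated range of 5.99 to 6.42, and the difference was -0.33 ± 0.13 (adjusted p = 0.406, limma). Over all genes 18 were called (0.0903%), 15 higher (0.0752%) and 3 lower (0.015%). Etv5, at 8.55, 8.65, 8.96, 8.33 and 8.07, was within the untreated range on 3 arrays, above it on 1 and below it on 1, and differed by -0.02 ± 0.20 (95% interval -0.46 to 0.41). Dusp6, at 10.13, 9.90, 9.77, 9.50 and 9.83, differed by 0.16 ± 0.13. The Spred2 arrays, at 9.13, 9.13, 9.04, 8.70 and 9.15, gave the lowest difference of the 10, -0.62 ± 0.33, which was -0.10 without the untreated array at 10.70, replicate 2. The remaining members lay between -0.30 (Dusp5) and 0.39 (Etv4). The members' median difference was -0.09, and over all genes it was -0.01.

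**Figure D2:**
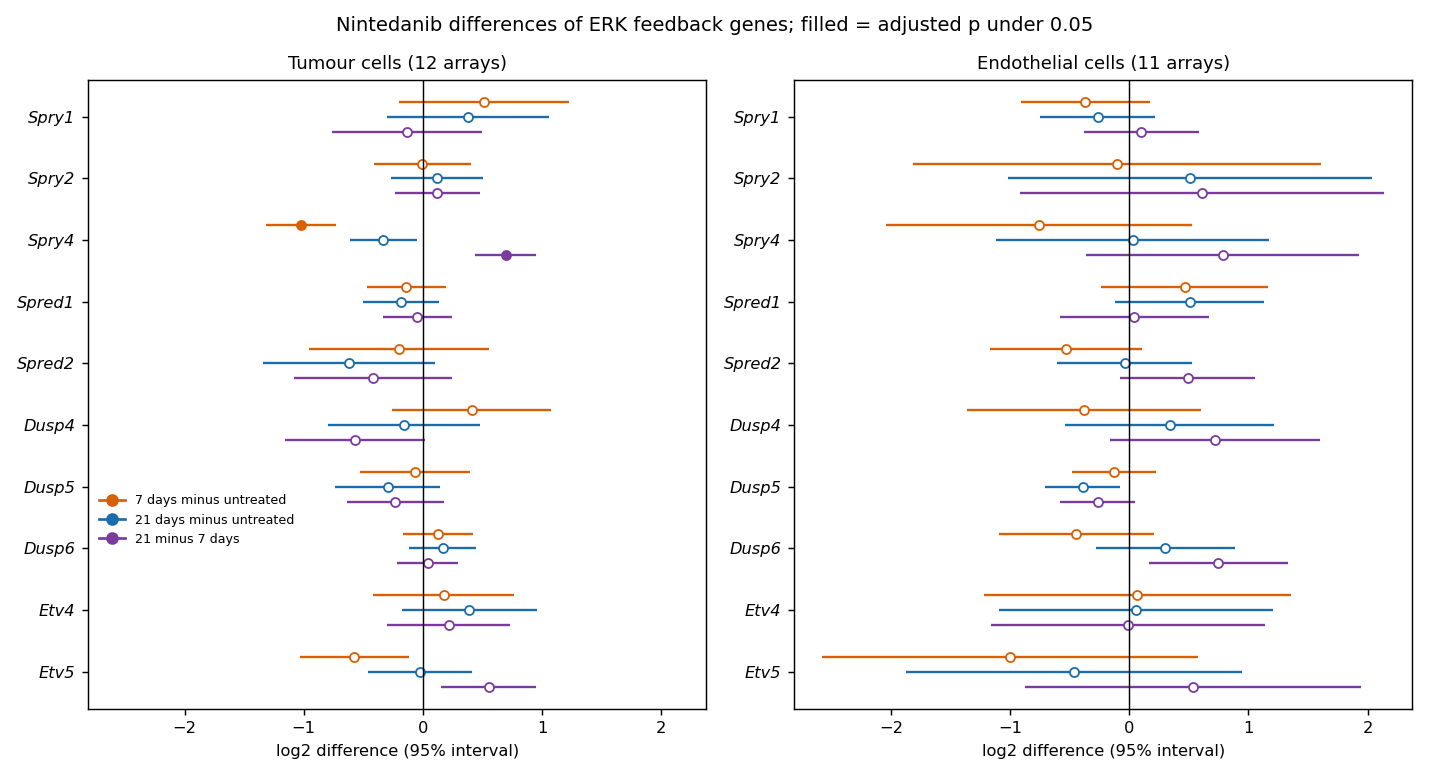
Log2 differences of the 10 genes between treatment groups with 95% intervals, in tumour cells (left) and endothelial cells (right); filled points passed an adjusted p under 0.05 in limma. Only Spry4 in tumour cells has filled points, at -1.03 for 7 days minus untreated and 0.69 for 21 minus 7 days, and the intervals of all but Spry1, Spred2 and Dusp5 are wider in endothelial cells.

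Between 7 and 21 days Spry4 rose in tumour cells, and no other member was called. All 5 long-term arrays (5.73 to 6.26) lay above all 4 short-term arrays (5.15 to 5.36). Spry4 was the 1 member without overlap here, beside 5.34% of all genes (2.94% higher, 2.40% lower). The rise was 0.69 ± 0.12 (95% interval 0.44 to 0.95), or 1.62-fold, with an adjusted p of 0.0171 in limma. In this comparison 243 genes were called (1.22%), 124 higher (0.622%) and 119 lower (0.597%), and Spry4 ranked 84 by p. It shares its short-term arrays with the comparison above, so both values rest on the same 4 low arrays. The call was lost when short-term replicate 1, 3 or 4 was left out, with adjusted p of 0.0543, 0.0543 and 0.0582. With the dissociation gene mean as covariate the Spry4 rise was 0.51 with an adjusted p of 0.363; all 18 of those genes were lower at 21 than at 7 days in direction, and 3 were called.

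Etv5 differed by 0.55 ± 0.18 between 7 and 21 days, with overlapping arrays and an adjusted p of 0.221 in limma. Its second cluster gave 0.51 ± 0.14 (adjusted p = 0.112). Neither value passed. Dusp4, at 6.85, 7.56, 7.10, 6.45 and 7.23 on the long-term arrays, gave -0.57 ± 0.27 and did not pass. Spry1 was 6.82, 6.38, 5.35, 5.94 and 5.74 on those arrays (-0.13 ± 0.29). Spry2 was 7.84, 7.76, 7.70, 8.01 and 7.32 (0.12 ± 0.16). The Spry1 arrays thus spread over 1.47 log2 units within the long-term group, and those of Spry2 over 0.69. The median difference was -0.004 over the members and -0.002 over all genes, with 5 members up and 5 down in direction.

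Other genes of the pathway were grouped in 4 lists. The relay from adaptor to kinase (13 of 20 listed genes measured) had no called gene in any treatment comparison of tumour cells. Gab1, an adaptor that docks on receptors, had the smallest p in this list at 7 days (-0.53 ± 0.22, adjusted p = 0.397, limma), followed by the ERK-activated kinase gene Rps6ka3 (0.37 ± 0.16). At 21 days against untreated Gab1 was at -0.58 ± 0.21 and Braf, a RAF kinase gene, at -0.34 ± 0.18. For 21 against 7 days Rps6ka3 (-0.38 ± 0.14) and the RAS exchange factor gene Sos1 (-0.30 ± 0.12) came first without passing.

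Etv1, the third PEA3 factor and 1 of 13 other ERK output genes, was also lowest at 7 days. It read 8.12, 7.94 and 7.90 in untreated, 7.23, 6.82, 6.68 and 7.39 in short-term and 8.51, 8.66, 8.29, 7.95 and 8.17 in long-term tumour cells. The short-term arrays lay below all others. Over all genes 4.90% were lower without overlap at 7 days against untreated, and 2.94% were higher without overlap from 7 to 21 days. Etv1 rose by 1.29 ± 0.17 from 7 to 21 days (adjusted p = 0.0040, limma), while its short-term difference of -0.96 ± 0.19 just missed the threshold (adjusted p = 0.0524). It was the only called gene of that list in the 3 tumour cell comparisons. Next by p were Phlda1 at 7 days (-0.46 ± 0.15, adjusted p = 0.250) and Hbegf, an EGF receptor ligand, for 21 against 7 days (0.62 ± 0.13, adjusted p = 0.0511). Against untreated cells, the small MAF factor gene Maff (0.32 ± 0.11) and Hbegf (0.41 ± 0.15) came first at 21 days. The list's median differences were 0.06 at 7 days, 0.19 at 21 days and 0.13 for 21 against 7 days.

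Among 19 other RAS and MAPK inhibitors, Dusp1 rose and none fell at 7 days. Dusp1, a nuclear MAPK phosphatase that is also an immediate early gene, read 10.61, 9.67 and 10.24 in untreated and 11.57, 11.59, 11.44 and 11.36 in short-term cells. No short-term array of Dusp1 reached down to the untreated range, beside 5.32% of all genes higher without overlap. The rise was 1.32 ± 0.20 (adjusted p = 0.0211, limma), and it stood beside the higher dissociation and immediate early genes noted above. At 21 days Dusp1 read 11.40, 10.93, 11.07, 10.67 and 11.12, a difference of 0.86 ± 0.19 that did not pass (adjusted p = 0.140), and the RAS GTPase activator gene Nf1 was at -0.30 ± 0.11. From 7 to 21 days 1 gene of the list rose and 1 fell. Dusp10, a phosphatase of the stress kinases p38 and JNK, rose by 0.75 ± 0.16 (adjusted p = 0.0449) after a short-term difference of -0.61 ± 0.18 that did not pass. Rasa1, another RAS GTPase activator, fell by 0.42 ± 0.08 (adjusted p = 0.0285).

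The nintedanib target receptors, 9 genes, included 1 called gene in tumour cells. Pdgfra, a PDGF receptor gene that is also a fibroblast marker, read 9.50, 9.21 and 10.03 in untreated, 9.15, 8.78, 8.72 and 9.02 in short-term and 9.82, 10.22, 9.93, 9.63 and 9.88 in long-term tumour cells. It rose by 0.98 ± 0.16 from 7 to 21 days (adjusted p = 0.0163, limma), and the short-term difference of -0.66 ± 0.19 did not pass (adjusted p = 0.167). The 11 fibroblast markers went both ways, 5 up and 6 down in direction at 7 days and 6 up and 5 down from 7 to 21 days. Among them Fbln1 and Col1a1 were called higher at 7 days (1.09 ± 0.14 and 0.65 ± 0.12) and lower from 7 to 21 days. Their part in the Pdgfra result was not tested. Pdgfrb was at -1.07 ± 0.25 for 21 against 7 days (adjusted p = 0.0695) and at -0.50 ± 0.28 for 21 days against untreated. Fgfr2 read 2.98 to 3.26 on all tumour cell arrays, and its differences of 0.16 ± 0.07 and 0.13 ± 0.06 against untreated did not pass.

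**Figure D3:**
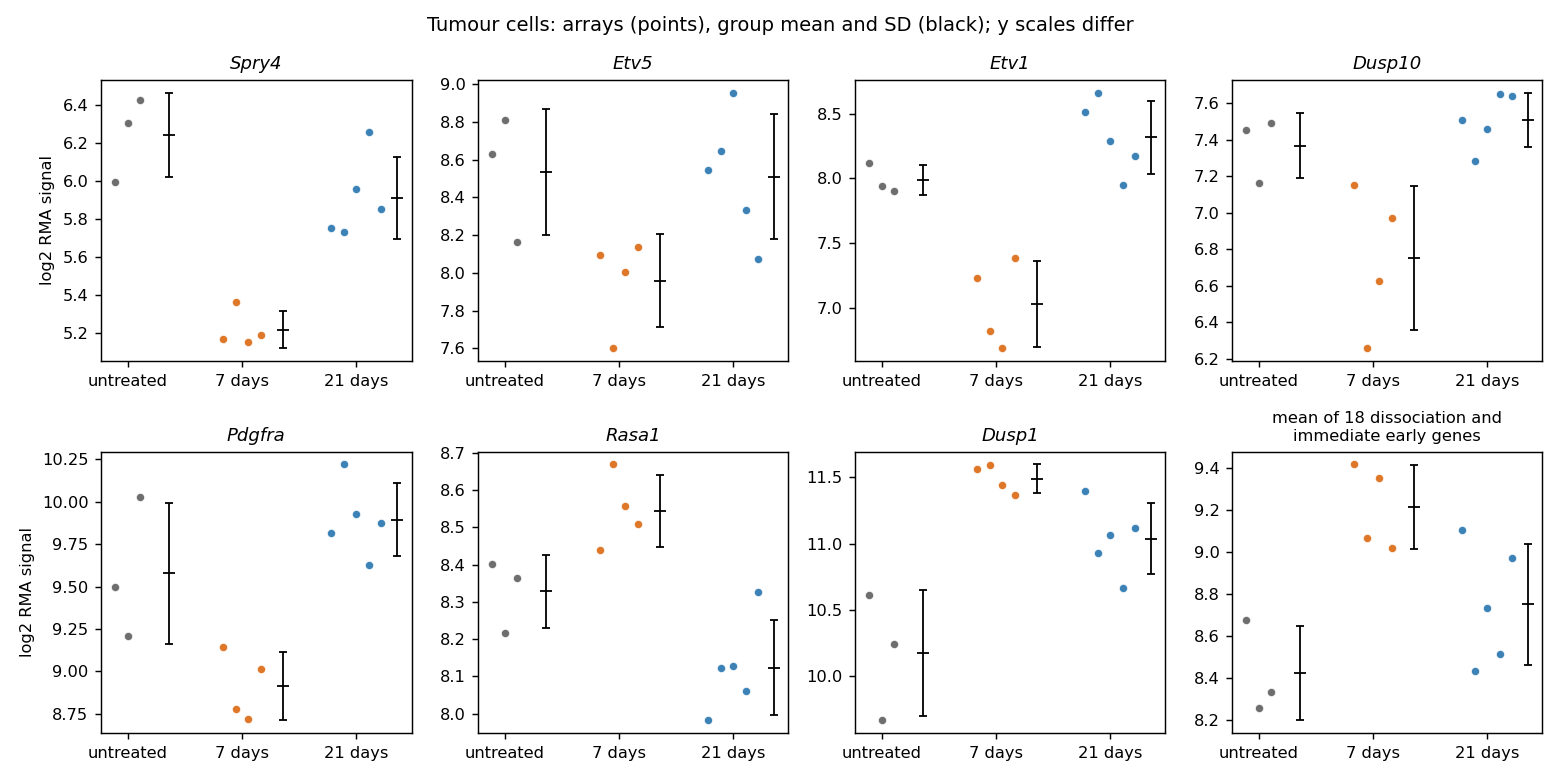
Log2 signal on the 12 tumour cell arrays of Spry4, Etv5, 5 other pathway genes and the mean of 18 dissociation and immediate early genes; points are arrays, black bars the group mean and SD. The 7-day arrays lie below all others for Spry4, Etv1, Dusp10 and Pdgfra and above all others for Rasa1. They are highest for the mean of the dissociation genes except where 1 long-term array (9.11) reaches into its range. The 5 other pathway genes were named because they were called in these comparisons. Over all genes 10.2% did not overlap between 7 days and untreated, and 5.34% between 7 and 21 days.

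Across the 12 tumour cell arrays the genes whose signal was most like that of Spry4 were Tspan5 (Pearson r = 0.951, Spearman rho = 0.916), Hpf1 (0.891 and 0.832) and Mccc2 (0.887 and 0.762). Tspan5 encodes a tetraspanin, Hpf1 a partner of PARP1 and Mccc2 a mitochondrial carboxylase subunit. These points share arrays and treatment groups, so the values describe likeness alone, the first 3 of the genes ranked. The other members, predicted genes, small RNAs and olfactory or vomeronasal receptors were left out of the ranking.

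Endothelial cells carried more Spry1 and Spry4 and less Dusp4 than tumour cells in all 3 states of treatment, and more Spred1 in both treated states. Spry1 read 7.75, 7.57 and 8.46 on untreated endothelial arrays, against 5.52 to 5.87 on untreated tumour cell arrays. It was higher by 2.26 ± 0.32, or 4.79-fold (adjusted p = 3.47e-05, limma). Without nintedanib, 3 of the 10 members were called, 2 higher (Spry1, Spry4) and 1 lower (Dusp4). Over all genes 3656 were called (18.3%), 1630 higher (8.18%) and 2026 lower (10.2%). The Spry1 difference was 1.38 ± 0.30 at 7 days and 1.62 ± 0.25 at 21 days, both called. All 11 endothelial arrays (7.37 to 8.46) lay above all 12 tumour cell arrays of Spry1 (5.35 to 6.86). Within the untreated, short-term and long-term state 3, 6 and 3 of the 10 members did not overlap between the cell types. Over all genes these shares were 35.7%, 44.3% and 23.5%.

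Spry4 read 7.17, 8.16 and 8.66 on untreated endothelial arrays, 6.20, 8.63 and 6.89 on short-term ones and 8.50, 8.33, 7.50, 7.70 and 8.11 on long-term ones. The endothelial cells exceeded the tumour cells by 1.76 ± 0.43, 2.03 ± 0.40 and 2.12 ± 0.33 in the untreated, short-term and long-term state (adjusted p = 0.0060, 0.000703 and 6.05e-05, limma). Within each state the Spry4 arrays of the cell types did not overlap, beside the shares of all genes given with Spry1. The lowest short-term endothelial Spry4 array (6.20) still fell inside the untreated tumour cell range. Spred1 read 7.97, 8.50 and 8.37 untreated, 8.06, 9.36 and 8.83 short-term and 9.02, 8.51, 8.55, 8.64 and 9.23 long-term in endothelial cells. Its excess over tumour cells was called at 7 days (1.23 ± 0.24) and 21 days (1.32 ± 0.20), and not in the untreated state (0.62 ± 0.26, adjusted p = 0.102). The excess itself differed from the untreated one by 0.61 ± 0.35 at 7 days and 0.69 ± 0.32 at 21 days, and neither value passed (adjusted p = 0.544 and 0.925). The untreated Spred1 arrays of the cell types overlapped, by 0.03 log2 units.

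Dusp4 was the only member called lower in endothelial cells in all 3 states; Spry2, Dusp5, Etv4 and Etv5 were lower in direction in each. It read 5.40, 5.76 and 5.53 untreated, 5.41, 4.19 and 5.95 short-term and 5.96, 6.15, 6.66, 5.41 and 5.33 long-term. The differences from tumour cells were -1.63 ± 0.41, -2.42 ± 0.38 and -1.13 ± 0.32 (adjusted p = 0.0070, 7.47e-05 and 0.0098, limma). At 21 days the highest endothelial array (6.66) overlapped the tumour cells (6.45 to 7.56). The untreated call was lost without untreated tumour cell replicate 3, which had the highest Dusp4 of its group, at -1.30 with an adjusted p of 0.0525.

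At 7 days 4 of 10 members were called between the cell types, 3 higher and 1 lower, beside 7972 genes (40%; 4591 higher, 23%, and 3381 lower, 17%). At 21 days 5 of 10 were called, 3 higher and 2 lower, beside 6378 genes (32%; 3125 higher, 15.7%, and 3253 lower, 16.3%). At 7 days the members' share was thus that of all genes. The fifth member at 21 days was Etv5, lower in endothelial cells by -1.11 ± 0.42 with an adjusted p of 0.0486, a call that held in 13 of 32 alternatives. The second Etv5 cluster was lower in all 3 states (-0.95 ± 0.28, -0.72 ± 0.26 and -1.38 ± 0.22), and passed in each. Its genome position could not be checked, and the 2 Etv5 clusters did not always go together. Within endothelial cells at 7 days the second was at 0.05 ± 0.35 and the kept one at -0.999 ± 0.709. Within tumour cells at 21 days against untreated they were at 0.33 ± 0.15 and -0.02 ± 0.20. Spry2, Spred2, Dusp5, Dusp6 and Etv4 were not called between the cell types in any state, and their differences ran from -0.92 (Spry2, short-term) to 0.39 (Dusp6, long-term).

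**Figure D4:**
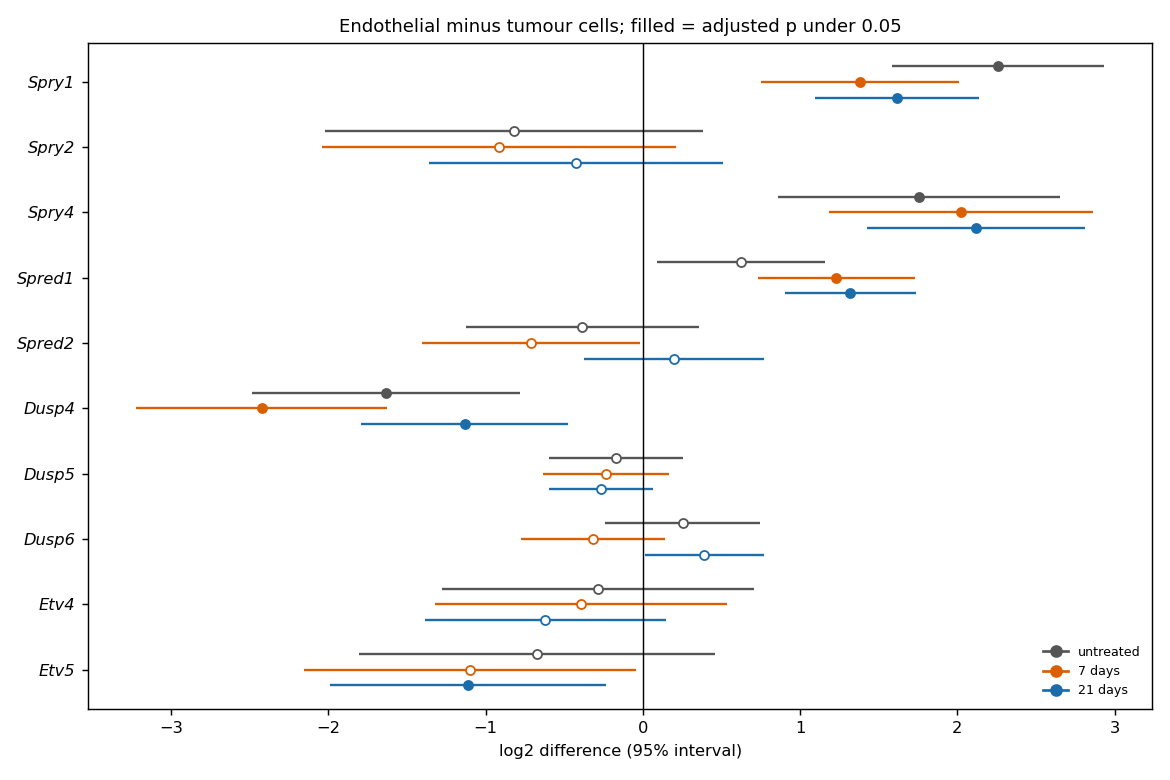
Log2 difference of endothelial minus tumour cells for the 10 genes in the untreated, 7-day and 21-day state, with 95% intervals; filled points passed an adjusted p under 0.05 in limma. Spry1 and Spry4 are right of zero and Dusp4 left of it in all 3 states, and Spred1 is at 0.62, 1.23 and 1.32.

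The other lists are set beside the calls over all genes, 18.3%, 40% and 32% in the untreated, short-term and long-term state. Of 13 other ERK output genes 6, 5 and 8 were called lower in endothelial cells in the untreated, short-term and long-term state, and 0, 0 and 1 higher. Their median difference was -0.79, -0.57 and -0.55, beside 0.03, 0.11 and 0.06 over all genes. Of the 18 dissociation and immediate early genes 5, 10 and 5 were also called lower in endothelial cells, and 1, 1 and 2 higher. The median of those 18 was -0.56, -0.63 and -0.28. The part of cell isolation in the values of the output genes was not tested. Of the 19 other inhibitors 4, 8 and 7 were lower and 2, 3 and 4 higher. The relay genes gave 2, 4 and 3 lower and 2, 1 and 3 higher of 13, which at 7 days is about the share of all genes. Among the 9 nintedanib target receptors 3, 5 and 4 were higher in endothelial cells and 3 were lower in each state.

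Within endothelial cells no feedback gene was called for nintedanib. No gene of the 19938 was called at 7 days (0%), at 21 days (0%) or between them (0%) in limma, while 1629, 833 and 1875 genes had an unadjusted p under 0.05. Among the members these numbers were 0, 1 and 1. The residual SD of the median gene was 0.255 log2 units here, and the number of arrays limits the precision. At 7 days 8 of 10 members were lower in direction, with a median of -0.37 beside 0.06 over all genes. From 7 to 21 days 8 of 10 were higher in direction, with a median of 0.51 beside -0.04. Both medians rest on the same 3 short-term arrays, whose macrophage marker means (4.57 to 5.05) lay below those of all other endothelial arrays but 1 (4.92, long-term). Pericyte and smooth muscle markers averaged 6.08 to 6.38 on them, 5.71 to 5.95 on the long-term and 5.66 to 6.21 on the untreated arrays. From 7 to 21 days 8 of 10 pericyte markers (median -0.39) and 8 of 11 fibroblast markers (median -0.26) were lower in direction. The part of those cells in the shift was not tested.

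Dusp6 had the narrowest short-term group among the endothelial values. Its arrays read 9.80, 9.85 and 10.10 untreated, 9.53, 9.53 and 9.34 short-term and 10.68, 10.63, 10.50, 9.61 and 9.67 long-term. The short-term arrays lay below all others, and the long-term group held 3 arrays at 10.50 or more and 2 at 9.67 or less. The differences were -0.44 ± 0.29 at 7 days, 0.30 ± 0.26 at 21 days and 0.75 ± 0.26 between them (95% interval 0.17 to 1.33; adjusted p = 0.461, limma). Without the 3 endothelial arrays highest in macrophage markers, chosen after seeing the data, they were -0.50, 0.35 and 0.86. Spred2 read 9.37, 9.03 and 9.40 untreated and 8.53, 8.75 and 8.94 short-term, again without overlap, with a difference of -0.53 ± 0.29 (adjusted p = 0.682). Dusp6 and Spred2 were the 2 members without overlap at 7 days, and both were lower. Over all genes 13.8% did not overlap, 9.87% higher and 3.96% lower. From 7 to 21 days the members without overlap were Dusp6, which was higher, and Dusp5, which was lower. They stood beside 5.90% of all genes in that comparison. The long-term Spred2 arrays were 9.58, 8.81, 8.86, 8.97 and 9.93.

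Spry4 in endothelial cells differed by -0.76 ± 0.58 at 7 days, and the interval from -2.04 to 0.52 includes both no change and the decrease seen in tumour cells. It was -0.23 without short-term replicate 1 (6.20) and -1.45 without replicate 2 (8.63). The difference of the short-term effect between the cell types was 0.27 ± 0.59 for Spry4 (adjusted p = 0.885, limma), and 0.79 and -0.43 without those same arrays, so the tumour cell decrease was not shown to be particular to those cells. At 21 days the endothelial difference was 0.03 ± 0.52. Spry1 was at 7.72, 7.37 and 7.59 short-term and 8.09, 7.38, 7.48, 7.69 and 7.68 long-term, with differences of -0.37 ± 0.24 and -0.26 ± 0.22 from untreated. Spry2 spread most, at 7.61, 6.47 and 6.29 untreated, 4.92, 6.97 and 8.17 short-term and 6.68, 8.40, 7.39, 6.40 and 7.65 long-term. The 3 short-term Spry2 arrays thus covered a wider range than all other arrays of that gene together, and its short-term difference was -0.10 ± 0.77.

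Spred1 was at 0.47 ± 0.31 and 0.51 ± 0.28 in endothelial cells at 7 and 21 days, neither of which passed. Every long-term Spred1 array (8.51 to 9.23) lay above the untreated ones (7.97 to 8.50), by a margin of 0.01 log2 units. Spred1 was the 1 member without overlap at 21 days, beside 3.51% of all genes (2.14% higher, 1.36% lower). In the test of a different long-term effect between the cell types it was the only member with an unadjusted p under 0.05. Dusp5 read 6.59, 6.86 and 6.27 untreated, 6.34, 6.58 and 6.42 short-term and 5.99, 6.24, 6.34, 6.25 and 6.11 long-term. Its 21-day difference was -0.39 ± 0.14 with overlapping groups, and did not pass. The Dusp4 differences were -0.38 ± 0.44 and 0.34 ± 0.40.

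Etv5 in endothelial cells read 7.07, 7.84 and 8.67 untreated, 7.74, 7.65 and 5.19 short-term and 6.78, 8.34, 8.02, 7.07 and 6.78 long-term. The difference at 7 days was -0.999 ± 0.709, and without the short-term array at 5.19, replicate 3, it was -0.16. Etv4 read 6.50, 4.91 and 6.42, then 6.52, 5.21 and 6.30, then 5.31, 7.18, 5.77, 6.37 and 5.36, with differences of 0.07 ± 0.58 and 0.06 ± 0.52. In each endothelial group at least 1 Etv4 array was more than 1 log2 unit from another. No member passed the test of a different short-term effect between the cell types, for which 19 genes were called (0.0953%), or of a different long-term effect, for which none was (0%; 1063 genes at an unadjusted p under 0.05).

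No gene of the 4 pathway lists was called in endothelial cells either. The smallest p among the other ERK output genes belonged to the immediate early genes Egr1 (1.24 ± 0.31, adjusted p = 0.427, limma) and Ier3 (1.17 ± 0.30) at 7 days, and to the same genes at 21 days (1.03 ± 0.28 and 1.18 ± 0.27). Dusp1 was at 0.64 ± 0.19 and 0.99 ± 0.17 (adjusted p = 0.549 and 0.324). Etv1, low at 7 days in tumour cells, was also lower in direction here at 7 days (-1.38 ± 0.48, adjusted p = 0.577, limma). Its short-term endothelial arrays (4.96 to 6.02) lay below the untreated ones (6.24 to 7.72), beside 3.96% of all genes lower without overlap. They overlapped the long-term ones (5.72 to 7.21). The dissociation and immediate early genes averaged 7.82 to 8.06 on untreated, 8.44 to 8.77 on short-term and 8.24 to 8.91 on long-term endothelial arrays. Fgfr1, an FGF receptor gene, was at -0.62 ± 0.22 at 7 days and at 0.95 ± 0.20 from 7 to 21 days (adjusted p = 0.341), and its short-term arrays overlapped those of the untreated group. Fgfr4 was at 0.60 ± 0.19 at 7 days, with signals of 3.89 to 4.97 on endothelial arrays. Of the relay genes Braf was at -1.02 ± 0.51 at 7 days and Map2k1, a MEK gene, at 0.59 ± 0.46 at 21 days. Spry3, a Sprouty gene outside the 10, was at 0.25 ± 0.11 at 7 days and Errfi1, an inhibitor of EGF receptors, at 0.87 ± 0.35 at 21 days. For 21 against 7 days Maff (0.89 ± 0.27), Epha4 (-0.63 ± 0.17), Rasa2 (-0.37 ± 0.11) and Dusp10 (1.21 ± 0.49) were first by p in their lists.

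The feedback genes varied more between arrays of a group than most genes did, when set beside genes of all levels. The kept clusters of the members lay between percentile 70.9 (Etv4) and 95.9 (Dusp6) of mean level among all clusters. Their spread was not compared with that of genes of like level. All 10 members had a residual SD above the median gene in tumour cells, and 9 of 10 did in endothelial cells, the exception being Dusp5. The members' median was 0.308 (tumour) and 0.511 log2 units (endothelial), beside 0.156 and 0.255 over all genes. Spry4 had a residual SD of 0.186 in tumour and 0.790 in endothelial cells, a ratio of 4.24. Spry2 (ratio 3.93) and Etv5 (3.18) followed, while Spry1, Spred2 and Dusp5 spread less in endothelial than in tumour cells. Ordered by group mean, Spry1 had a single break, between the short-term endothelial group (7.56 ± 0.17, SD, n = 3) and the short-term tumour cells (6.18 ± 0.51, SD, n = 4). For Spry4 the break between neighbours was between long-term (5.91 ± 0.21, SD, n = 5) and short-term tumour cells (5.22 ± 0.10, SD, n = 4), and all other neighbours overlapped. Neighbouring groups of Spry2, Spred1, Spred2, Dusp4, Dusp6, Etv4 and Etv5 all overlapped, and for Dusp5 only the lowest pair, short-term over long-term endothelial cells, did not.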

How the data were processed

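Expression was measured on 23 arrays, 1 per sample, which the labels call biological replicates. Signals were deposited on the log2 scale, 1 value for each transcript cluster and array. RMA (background correction, quantile normalization between arrays and summary of probes) and the oligo package are named in the submitters' processing notes. RMA removes differences in total RNA, so changes are relative to the other transcripts. No version, genome build or annotation release is given in these sources.

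The table held 35556 clusters, of which 21789 named 1 gene, 1621 several and 12146 none. Names were updated through a RefSeq table. For each of 19938 genes the cluster with the highest mean was kept (999 genes had several), with no filter. Linear models with empirical Bayes moderation were fitted with limma 3.58.1 in R 4.3.3: 12 tumour cell arrays, 11 endothelial arrays, and all 23 for comparisons between cell types. Tests were two-sided, adjusted by Benjamini-Hochberg, and checked on simulated data. Arrays of equal replicate number showed little likeness (correlations of their deviations from group means were -0.15 to 0.11), and no block was used. The labels do not state whether tumour and endothelial samples of 1 number share an animal. These correlations cannot decide it, because samples of different cell types from 1 animal need not deviate together. The tests between cell types treated all arrays as independent. The p-values measure the spread between these samples.

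Named were all 10 members. From each of 4 pathway lists up to 6 called genes per treatment comparison were named, or else the 2 of smallest p. The 3 genes most like Spry4 among those ranked were also named. A further called or second gene of a list, Etv1 in endothelial cells, and marker genes were named after their values were seen. The members and lists were chosen with earlier results of these data known. Some listed relay genes are not reported here. RefSeq promoters were searched for GGAA and CGGAAG on both strands; Dusp4, Etv4 and Spry4 promoters were not used here. Alternatives were another set of arrays in the fit, a filter at the 30th percentile of mean level, an intensity trend, array weights, the mean of all clusters, median centring, quantile normalization done again, a replicate block and the omission of each array in turn.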

Additional observations from a re-analysis of the deposited data

Results flagged for a closer look

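Within groups of 4 or 5 arrays, 2 of 30 groups tested for the 10 genes had an array far from the others, and chance flags about 1 in 20 groups. Spry4 in short-term tumour cells read 5.36 on replicate 2 and 5.15 to 5.18 on the other 3 arrays, a gap of 0.842 of the group's whole range. That array was the highest of the group, and the other 3 lay further below the untreated ones. Spred2 in long-term tumour cells read 8.70 on replicate 4 and 9.04 to 9.15 on the other 4 arrays, a gap of 0.751 of the range. No long-term Spred2 difference passed the test.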

How the results depend on the processing

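The Spry4 calls in tumour cells were the calls of the treatment comparisons, and they depended on the fit. The count of called members at 7 days went from 1 to 0 with one fit over all 23 arrays (Spry4 adjusted p = 0.797, limma), whose spread includes the wider Spry4 values of endothelial cells, and to 0 with the dissociation and immediate early mean as covariate, chosen after seeing the data; it was 1 to 1 with each array left out. For 21 against 7 days the count went from 1 to 0 under the same 2 settings (Spry4 adjusted p = 0.966 and 0.363) and ranged from 0 to 1 with each array left out; it was 0 without short-term replicate 1, 3 or 4. The cause was not tested for the covariate. Under the replicate block the counts stayed at 1, 0 and 1 in tumour cells, 0 in endothelial cells and 3, 4 and 5 between the cell types, where Dusp6 replaced Etv5 at 21 days; Spry4 was at -1.08 (adjusted p = 0.0226) and 0.71 (0.0366). Of 2830 member values over all alternatives, 2688 kept direction and side of the threshold, 27 lost a call, 13 gained one, 102 uncalled values changed sign and 0 called values did. Of the calls lost, 19 were Etv5, 7 Spry4 and 1 Dusp4. With 3 to 5 arrays per group, differences that were small beside their SE could not be detected.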
